A study of Mus musculus with 4 samples.

Results

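The genes of ER to Golgi transport described here are the machinery that moves secretory proteins into the endoplasmic reticulum (ER) and carries them between the ER and the Golgi. They were chosen by gene symbol: the Sec61, Sec62, Sec63 and Sec11 genes, the Sec13, Sec16, Sec23, Sec24, Sec31, Sar1a and Sar1b genes, the Sec22 genes, the COPI coat genes, Arf1 to Arf6, the Tmed genes and Kdelr1 to Kdelr3. The rule found 75 of 22534 probes, for 48 of 12347 named genes. Of the 48 genes, 40 had a probe with a value on all 4 arrays and were tested, 6 had values on both siSelT-5 arrays but no complete probe, and Sec24b and Tmed8 had fewer values.

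The samples were NIH 3T3 cells, an established line of mouse fibroblasts, grown under 150 µg/ml hygromycin with 10% serum and 100 nM selenite. In 2 groups the pU6-m3 plasmid, which both arms carried, expressed a short RNA against Selt, the gene of the ER selenoprotein T: siSelT-1 (nucleotides 205 to 224 of the mRNA) and siSelT-5 (nucleotides 971 to 989). Each construct was set against cells with the empty plasmid on 2 two-colour arrays, from different cultures, with knockdown RNA in Cy5 and vector RNA in Cy3. Values are ratios of knockdown to vector, read as log2, so 0 means equal RNA in both and the level of a gene cannot be seen.

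Proteins that enter the secretory pathway pass through the Sec61 channel of the ER membrane, where the signal peptidase removes their signal sequence. Cargo leaves the ER in vesicles coated by COPII, whose inner layer is Sar1 with Sec23 and Sec24 and whose outer layer is Sec13 with Sec31. COPI vesicles, assembled through Arf GTPases, return escaped residents and receptors from the Golgi. The p24 proteins of the Tmed genes cycle between both organelles as cargo adaptors, and KDEL receptors bring back chaperones that carry the KDEL retrieval signal.

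The arrays differed in coverage and centre. Values were present for 34.1% and 41.0% of the probes with siSelT-1, against 89.9% and 81.5% with siSelT-5. The median of the probes shared by all arrays was 0.19, 0.09, 0.43 and 0.36, so ratios are also given centred, with that median subtracted from each array. Over all values of each array the median was 0.18, 0.06, -0.22 and -0.19, so the siSelT-5 centre depended on the probes taken. The Selt gene had no named probe, so the knockdown was not checked here. Of 11 fibroblast markers 8 were tested, with 4 higher and 3 lower than vector, or 2 and 4 after centring. The endothelial markers Pecam1 and Tie1, which these cells should lack, both had values, with mean ratios of 0.70 and 0.72 above vector (limma, adjusted p = 0.00355 and 0.00569). The adipocyte marker Lpl (0.64, 0.00235) and the muscle marker Des (0.44, 0.0127) also rose, Lpl on both scales. The macrophage marker Lyz2 stood below vector (-0.20, 0.0762) and passed lower after centring (-0.47, 0.00739). Tested were 2 of 4 endothelial, 1 of 3 adipocyte, 1 of 3 muscle, 1 of 4 macrophage and 0 of 4 epithelial markers. Their part in the results below was not tested.

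Most of the tested transport genes stood above vector as deposited. After centring on the shared probes their calls were as frequent as those of all genes. Over both constructs together 26 of 40 rose and 1 fell, or 67.5%, where 53.7% of 4754 genes passed (45.7% higher and 8.04% lower). After centring 13 rose and 4 fell, or 42.5%, beside 42.4% of all genes (20.5% higher and 21.9% lower). With each array centred on the median of all its values 29 rose and 1 fell, where 2717 of 4754 genes passed. The median of the 40 genes was 0.34 as deposited and 0.08 centred, beside 0.25 and -0.02 over all genes. A gene passed at an adjusted p under 0.05 in limma's fit of all 4754 genes. All 13 genes called higher after centring were also called as deposited. Without replicate 1 of siSelT-1 limma called 0 of 4754 genes for both constructs, with 18 of the 40 at an unadjusted p under 0.05 beside 38.8% of all genes. Without its replicate 2 it called 11 of the 40, all higher, beside 18.4% of all genes. Without replicate 1 or 2 of siSelT-5 it called 28 and 30 higher and 4 and 3 lower, beside 65.9% and 67.1% of all genes.

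By construct, siSelT-5 carried more of the calls than siSelT-1 in the same fit, which gives both constructs a shared spread. With siSelT-1 1 gene rose and 2 fell, or 7.5% beside 13.7% of all genes (10.3% higher and 3.37% lower), and after centring the same 3 genes were called, beside 8.9% of all genes (3.83% higher and 5.07% lower). With siSelT-5 28 rose and 2 fell, or 75% beside 53.9% (47.6% higher and 6.29% lower), and after centring 13 rose and 3 fell, or 40% beside 39.2% (19.2% higher and 20% lower). The replicates were not equally spread: the root mean square SD over the 40 genes was 0.15 with siSelT-1 and 0.36 with siSelT-5. With array weights siSelT-1 had 11 higher and 3 lower among the 40, and siSelT-5 had 24 and 0. Over all 4754 genes that fit called 1920 with siSelT-1 and 2016 with siSelT-5. Leaving out replicate 1 or replicate 2 of siSelT-1 left that construct 1 array and no spread of its own. Its calls in those fits therefore do not describe the transport genes. Leaving out replicate 1 or replicate 2 of siSelT-5 gave 12 higher and 3 lower for siSelT-1, where 43.9% of all genes passed. All 4 arrays were above 0 for 22 of the 40 genes, a share of 55.0% beside 44.9% of all genes, and below 0 for 1 of them, Arcn1 (2.5% beside 8.6%).

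**Figure D1:**
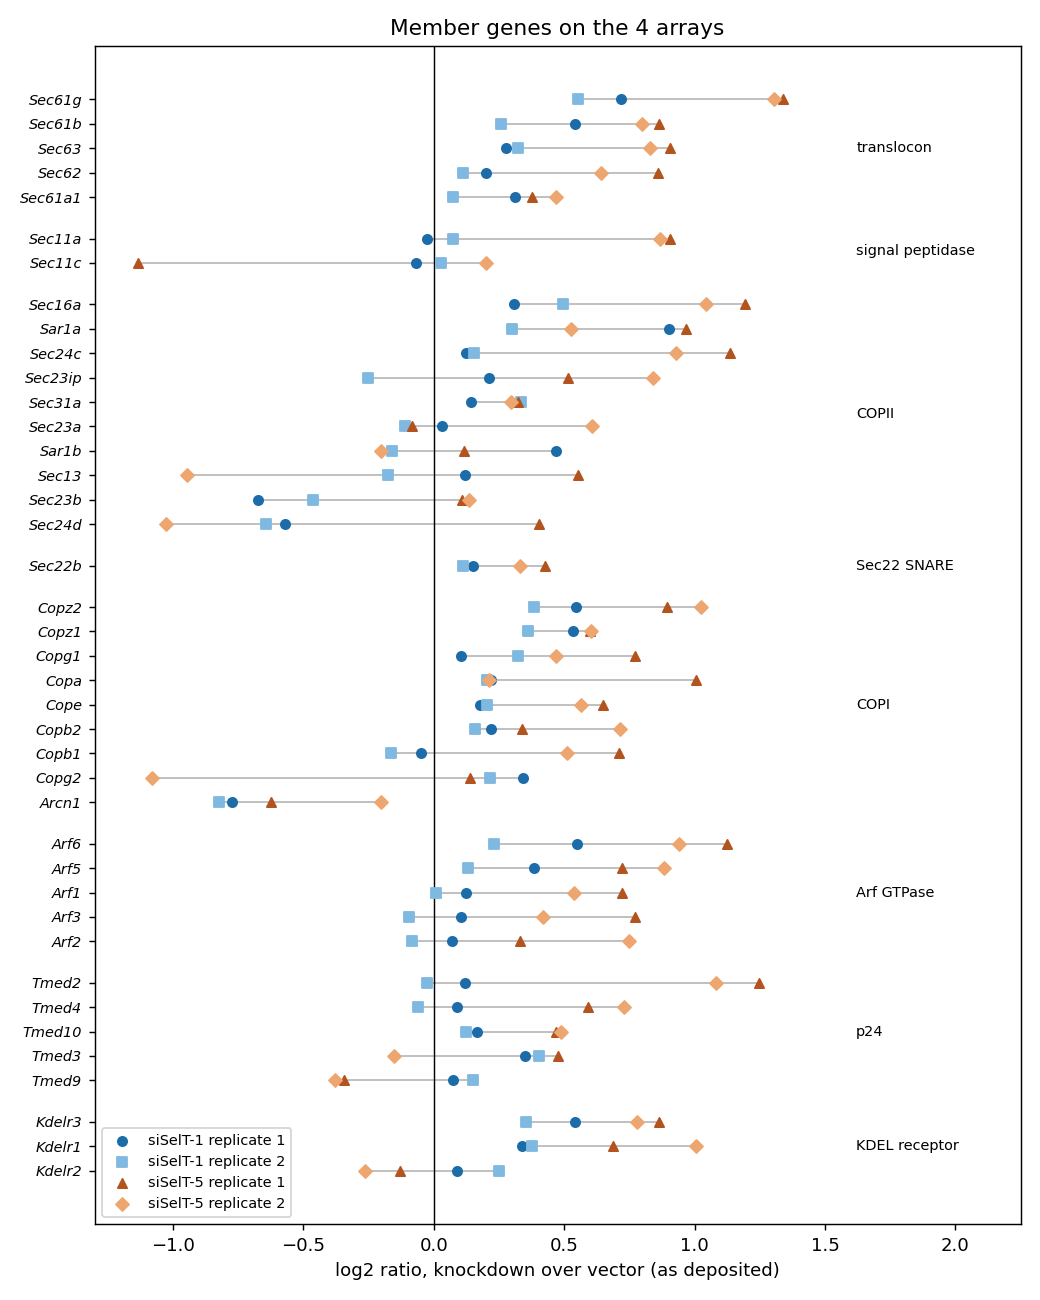
Log2 ratio of knockdown to vector for the 40 tested genes on each of the 4 arrays, as deposited, grouped by role and ordered by mean within a role; the grey line joins the lowest and highest array. The 5 translocon genes lie right of 0 on every array, while COPII genes lie on both sides, Arcn1 is left of 0 throughout, and Sec13, Sec24d, Sec11c and Copg2 have siSelT-5 replicates far apart.

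All 5 tested translocon genes rose as deposited, and 3 of them after centring. Sec61g (Entrez Gene 20335), the small gamma subunit of the channel, had ratios of 0.72 and 0.55 with siSelT-1 and of 1.34 and 1.31 with siSelT-5. It was above vector on every array and was the highest of the 40 genes, with a mean of 0.98 ± 0.40 (SD, n = 4), or 1.97-fold (limma, adjusted p = 0.00161, and 0.00433 centred). It was also the one gene of the set that rose with siSelT-1 alone (adjusted p = 0.0338). Sec61b, the tail-anchored beta subunit, had 0.54 and 0.26 with siSelT-1 and 0.86 and 0.80 with siSelT-5. Its mean was 0.62 ± 0.28 (adjusted p = 0.00329, and 0.0180 centred).

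Sec63, which recruits the chaperone BiP to the channel, had 0.28 and 0.32 with siSelT-1 and 0.91 and 0.83 with siSelT-5, a mean of 0.58 ± 0.33 (adjusted p = 0.00271, and 0.0209 centred). These are means of 2 probes, and over all 4 Sec63 probes the siSelT-5 mean was 0.26 (adjusted p = 0.332 in a fit of the siSelT-5 arrays alone). Its partner Sec62 stood at 0.20 and 0.11 with siSelT-1 and at 0.86 and 0.64 with siSelT-5. That rise passed as deposited (mean 0.45 ± 0.36, adjusted p = 0.00712) but not after centring for both constructs (0.0879), while it passed centred for siSelT-5 alone (0.0428). Sec61a1, the pore-forming alpha subunit, was the lowest of the 5 at 0.31 and 0.07 with siSelT-1 and 0.38 and 0.47 with siSelT-5. Its mean of 0.31 ± 0.17 passed as deposited (0.0258) and was 0.04 after centring (0.677). The median of the 5 genes was 0.58, or 0.32 centred. In all 5 genes both siSelT-5 arrays were above both siSelT-1 arrays as deposited, an order held by 52.6% of all genes. After centring Sec61a1 lost this order (0.12 and -0.02 with siSelT-1, -0.05 and 0.11 with siSelT-5). The other translocon genes kept it, beside 32% of all genes.

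The catalytic subunits of the signal peptidase, Sec11a and Sec11c, gave different readings. Sec11a had -0.02 and 0.08 with siSelT-1, against 0.91 and 0.87 with siSelT-5, and passed over both constructs (mean 0.46 ± 0.50, adjusted p = 0.00542) but not centred (0.0919). With siSelT-5 alone it rose on both scales (adjusted p = 0.00253, and 0.0206 centred). Sec11c had -0.07 and 0.03 with siSelT-1, while its siSelT-5 arrays gave -1.13 and 0.20. These siSelT-5 replicates disagree in sign, and Sec11c did not pass (mean -0.24 ± 0.60, adjusted p = 0.372).

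COPII genes were spread on both sides of the all-gene median. Of 10 tested, 4 rose and 0 fell, and after centring 3 rose and 1 fell, with a median of 0.19 as deposited and -0.07 centred. Sec16a, the scaffold of ER exit sites, had 0.31 and 0.49 with siSelT-1 and 1.19 and 1.04 with siSelT-5, a mean of 0.76 ± 0.43 (adjusted p = 0.00196, and 0.0102 centred). Sar1a, the GTPase that starts coat assembly, had 0.90 and 0.30 with siSelT-1 and 0.97 and 0.53 with siSelT-5 (mean 0.67 ± 0.32, adjusted p = 0.00948, and 0.0449 centred). Both were above vector on all arrays. The cargo-binding Sec24c had 0.12 and 0.15 with siSelT-1 and 1.14 and 0.93 with siSelT-5 (mean 0.59 ± 0.52, adjusted p = 0.00315, and 0.0229 centred). Its siSelT-5 arrays lay well above its siSelT-1 arrays.

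The other COPII genes ranged from -0.46 to 0.33. Sec31a, of the outer cage, passed as deposited at a mean of 0.27 ± 0.09 (adjusted p = 0.0323) and was 0.01 after centring (0.949). Sec23b, an inner coat subunit and the activator of the Sar1 GTPase, had -0.67 and -0.46 with siSelT-1 against 0.11 and 0.14 with siSelT-5. It fell with siSelT-1 on both scales (adjusted p = 0.0380, and 0.0363 centred), and it passed below vector over both constructs after centring alone (0.0619 as deposited, 0.0110 centred). Its paralogue Sec23a did not pass, with a mean of 0.11 ± 0.34 (0.501). The siSelT-5 mean of Sec23a was 0.26 for the complete probe and -0.47 over both of its probes. Sec24d had -0.57 and -0.64 with siSelT-1, and its siSelT-5 arrays gave 0.40 and -1.03. With that spread it missed the threshold (mean -0.46 ± 0.61, adjusted p = 0.138, and 0.0522 centred). Without replicate 1 of siSelT-5 the Sec24d mean was -0.82, and without replicate 2 it was -0.10. Without replicate 1 or 2 of siSelT-1 it was -0.48 and -0.44.

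Sec13, which the COPII cage shares with the nuclear pore, had siSelT-5 ratios of 0.55 and -0.95 and did not pass (mean -0.11 ± 0.63, adjusted p = 0.720). Sar1b stood at 0.06 ± 0.31 (0.737) and Sec23ip, a partner of Sec23, at 0.33 ± 0.47 (0.0537). The siSelT-5 mean of the complete Sec23ip probe was 0.68, which passed as deposited (0.0163) and not after centring (0.188). Over both Sec23ip probes the siSelT-5 mean was 0.18 (0.567 in a fit of the siSelT-5 arrays alone). The ER SNARE Sec22b, which drives fusion in both directions of the route, rose as deposited to 0.26 ± 0.15 (0.0345) and was -0.01 after centring (0.904).

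Of 9 COPI coat genes tested 6 rose, 1 fell and 2 did not pass as deposited, with a median of 0.40, and after centring 2 rose and 1 fell, with a median of 0.13. The gene that fell was Arcn1, the delta subunit, with -0.78 and -0.83 with siSelT-1 and -0.62 and -0.20 with siSelT-5. It was below vector on every array, the lowest of the 40 genes at a mean of -0.61 ± 0.28, or 0.657-fold (adjusted p = 0.00487, and 0.00538 centred). Arcn1 fell with each construct alone as well (adjusted p = 0.0334 for siSelT-1 and 0.0496 for siSelT-5). It had a single probe.

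The highest coat subunits were the zeta pair. Copz2 had 0.55 and 0.38 with siSelT-1 and 0.90 and 1.02 with siSelT-5 (mean 0.71 ± 0.30, adjusted p = 0.00209, and 0.0103 centred). Copz1 had 0.53 and 0.36 with siSelT-1 and 0.60 and 0.60 with siSelT-5 (mean 0.52 ± 0.11, adjusted p = 0.00395, and 0.0345 centred). Both zeta genes were above vector on every array. Copg1, Cope, Copb2 and Copb1 rose as deposited to means of 0.42, 0.40, 0.36 and 0.25 (adjusted p = 0.0138, 0.00796, 0.0231 and 0.0461), and none of these 4 passed after centring (0.176 to 0.874). Copa, the largest subunit, had a siSelT-5 ratio of 1.00 on replicate 1 and 0.21 on replicate 2, and missed the threshold at a mean of 0.41 ± 0.40 (0.0527). Without replicate 1 of siSelT-5 the Copa mean was 0.21 and without replicate 2 it was 0.61. Without replicate 1 or 2 of siSelT-1 it was 0.41 and 0.41. Copg2, the second gamma subunit, stood at 0.14 and -1.08 with siSelT-5 and did not pass (0.709).

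Among the Arf GTPases, Arf6 and Arf5 passed on both scales. Arf6, which acts mainly at the plasma membrane, had 0.55 and 0.23 with siSelT-1 and 1.12 and 0.94 with siSelT-5 (mean 0.71 ± 0.40, adjusted p = 0.00276, and 0.0117 centred). Arf5 had 0.38 and 0.13 with siSelT-1 and 0.72 and 0.88 with siSelT-5 (mean 0.53 ± 0.34, adjusted p = 0.00515, and 0.0486 centred). For both genes the siSelT-5 arrays were above the siSelT-1 arrays. Arf1, the main GTPase of COPI assembly, and Arf3 rose as deposited to 0.35 and 0.30 (0.0159 and 0.0440), and Arf2 at 0.27 missed the threshold (0.0687). None of these 3 passed after centring (0.382 to 0.998). Over the 5 genes siSelT-1 gave a median of 0.07 and siSelT-5 one of 0.63, or -0.07 and 0.24 after centring. Arf1, Arf2 and Arf3 are close relatives, and whether their probes tell them apart was not tested.

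The p24 genes ranged from clear rises to ratios below 0. Tmed2 had 0.12 and -0.03 with siSelT-1 and 1.25 and 1.08 with siSelT-5. Nearly all of its mean of 0.61 ± 0.65 came from siSelT-5, and it passed over both constructs on both scales (adjusted p = 0.00301, and 0.0169 centred). Its partner Tmed10 had 0.17 and 0.12 with siSelT-1 and 0.47 and 0.49 with siSelT-5, and passed as deposited (mean 0.31 ± 0.19, 0.0172; centred 0.620). Tmed4 had 0.09 and -0.06 with siSelT-1 and 0.59 and 0.73 with siSelT-5, and also passed as deposited alone (mean 0.34 ± 0.38, 0.0171; centred 0.475). With values on 1 array per construct sufficing, which adds a further probe, the mean was 0.026 and did not pass (0.83). Tmed3 did not pass (mean 0.27 ± 0.29, 0.108). Tmed9 went the other way, with 0.07 and 0.15 with siSelT-1 and -0.34 and -0.38 with siSelT-5. It fell with siSelT-5 (adjusted p = 0.0340, and 0.00852 centred), and over both constructs it passed below vector after centring alone (0.210 as deposited, 0.0132 centred). Of 5 p24 genes 3 rose and 0 fell as deposited, and 1 rose and 1 fell centred, with medians of 0.31 and 0.05.

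Of the KDEL receptors, Kdelr3 and Kdelr1 rose and Kdelr2 did not. Kdelr3 had 0.54 and 0.35 with siSelT-1 and 0.86 and 0.78 with siSelT-5 (mean 0.63 ± 0.23, adjusted p = 0.00260, and 0.0135 centred). Kdelr1 had 0.34 and 0.38 with siSelT-1 and 0.69 and 1.01 with siSelT-5 (mean 0.60 ± 0.31, adjusted p = 0.00372, and 0.0376 centred). Both were above vector on every array. Kdelr2 had 0.09 and 0.25 with siSelT-1 and -0.13 and -0.26 with siSelT-5. Its mean of -0.01 ± 0.23 did not pass (0.904), although it passed below vector after centring (0.0399), and its probes disagreed as described below.

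**Figure D2:**
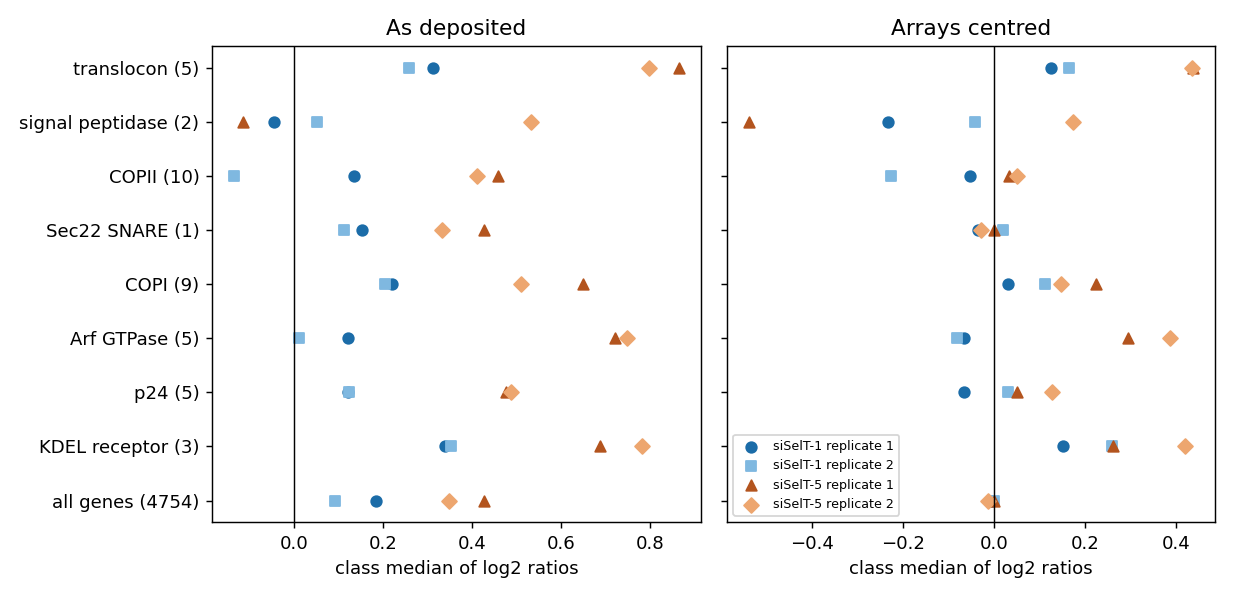
Median log2 ratio of each role on each of the 4 arrays, as deposited on the left and centred on the right, with the number of genes in brackets and all 4754 genes in the bottom row. Translocon, COPI and KDEL receptor medians lie above 0 on all 4 arrays on both scales, and Arf medians are above 0 after centring on the siSelT-5 arrays only.

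Several genes of this route are known targets of the unfolded protein response, whose factors ATF6 and XBP1 bind TGACGTG. The 250 bases before the start were searched on both strands in RefSeq promoters (GRCm38.p6), which held 42 of the 48 genes at 48 starts. The match was found at 1 start each for 5 genes, and at 1.65% of 32851 promoters. In all 5 the letters extend to TGACGTGG, which 0.563% of promoters hold. The longer elements ERSE (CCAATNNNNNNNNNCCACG) and ERSE-II were in none of the 48 member windows and in 0.113% and 0.0304% of all promoters. CCACG, which overlaps TGACGTGG on the other strand, was at 29 of the 48 starts and in 28.3% of promoters. The member windows had a median GC content of 58.8%, against 52.4% over all promoters, and its part in these matches was not tested. The 100 bases before the start are shown for the 5 genes with a match, because their ratios differ widely, and for Sec61g, the gene with the highest ratio. Capitals mark TGACGTG and CCACG on either strand, and each sequence reads 5′ to 3′ on the strand of its gene.
Kdelr3, chr15:79516308-79516407, plus strand: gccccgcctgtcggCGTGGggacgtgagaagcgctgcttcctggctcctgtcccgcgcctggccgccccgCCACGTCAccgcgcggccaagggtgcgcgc
Arf1, chr11:59228163-59228262, minus strand: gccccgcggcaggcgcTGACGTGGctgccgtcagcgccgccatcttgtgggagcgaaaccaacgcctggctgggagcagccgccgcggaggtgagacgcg
Copb1, chr7:114254681-114254780, minus strand: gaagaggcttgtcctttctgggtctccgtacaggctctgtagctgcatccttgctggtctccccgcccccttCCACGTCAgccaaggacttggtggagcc
Sec24d, chr3:123267396-123267495, plus strand: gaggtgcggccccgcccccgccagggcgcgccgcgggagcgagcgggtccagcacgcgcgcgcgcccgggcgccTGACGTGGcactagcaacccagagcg
Sec16b, chr1:157506696-157506795, plus strand: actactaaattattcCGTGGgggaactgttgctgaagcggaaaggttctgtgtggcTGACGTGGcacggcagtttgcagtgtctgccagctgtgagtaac
Sec61g, chr11:16508485-16508584, minus strand: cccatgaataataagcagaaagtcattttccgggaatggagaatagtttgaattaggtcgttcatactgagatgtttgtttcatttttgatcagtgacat

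The 5 genes with a match did not share a direction. Kdelr3 rose on both scales, Arf1 and Copb1 rose as deposited with centred means of 0.08 and -0.02, Sec24d stood at -0.46 and did not pass, and Sec16b had siSelT-5 values alone, at -1.50 and -2.11. Sec61g had neither set of letters in its window and the highest ratio. A match in such a window is a description of letters.

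The direct comparison of siSelT-1 with siSelT-5 asks which genes the constructs moved unequally. No transport gene passed (0 of 40, beside 0.0631% of all genes, 0.021% higher and 0.0421% lower, in limma as deposited and centred), with 21 of the 40 at an unadjusted p under 0.05, or 11 after centring, beside 35.7% and 25.8% of all genes. Tmed2 was furthest below 0, at a difference of -1.12 (SE 0.16, adjusted p = 0.0543, and 0.0938 centred). Sec24c differed by -0.89 (SE 0.16, 0.0543) and Sec11a by -0.86 (SE 0.15, 0.0543). Lower siSelT-1 than siSelT-5 ratios were the rule: both siSelT-5 arrays stood above both siSelT-1 arrays for 28 of the 40 genes, or 70.0% beside 52.6% of all genes, and for 21, or 52.5% beside 32.0%, after centring. The opposite order held for 3 genes, or 7.5% beside 11.9%, and for 7, or 17.5% beside 28.3%, after centring. Without replicate 1 or 2 of siSelT-5 the lower calls were 19 and 17 of the 40, beside 28% and 31.4% of all genes. The gap between the siSelT-5 replicates exceeded 1 for Sec13 (1.50), Sec24d (1.43), Sec11c (1.33) and Copg2 (1.22). The median replicate gap over the 40 genes was 0.15 with siSelT-1 and 0.18 with siSelT-5, beside 0.14 and 0.25 over all genes.

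**Figure D3:**
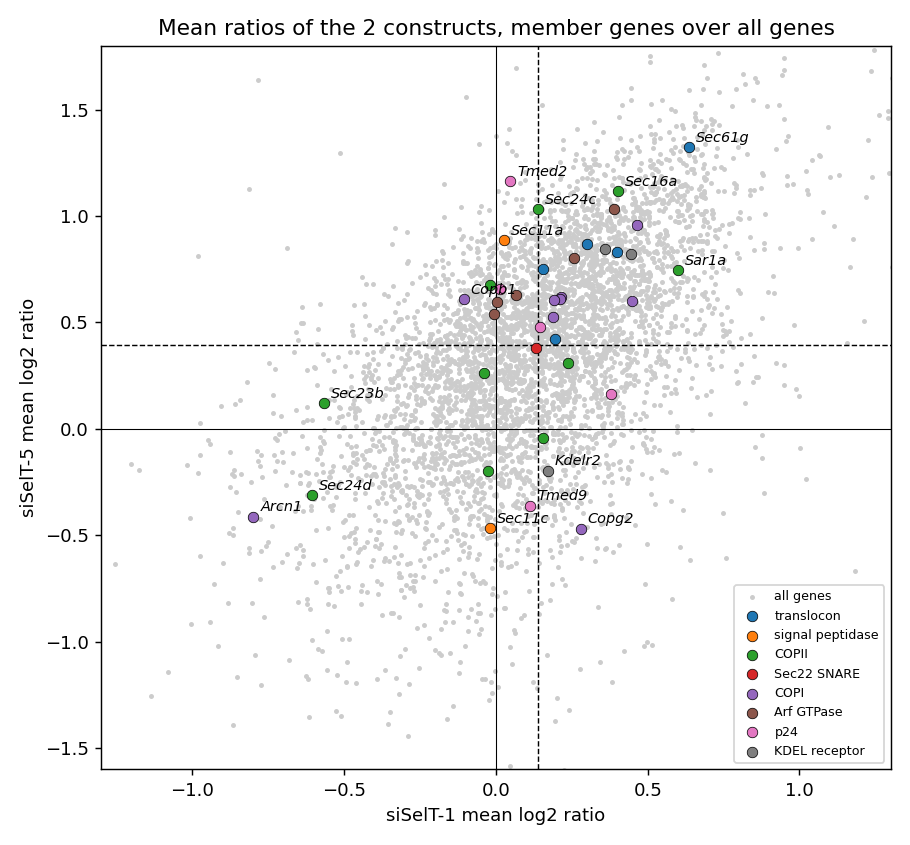
Mean log2 ratio with siSelT-1 (x axis) against siSelT-5 (y axis) for the 40 tested genes, coloured by role, over all genes in grey, of which 30 lie outside the axes; dashed lines mark the shift subtracted by centring, 0.14 for siSelT-1 and 0.39 for siSelT-5. Sec61g lies high on both axes and Arcn1 low on both, Tmed2, Sec24c and Sec11a are high with siSelT-5 and near 0 or 0.14 with siSelT-1, and Tmed9, Kdelr2 and Copg2 lie above 0 with siSelT-1 and below 0 with siSelT-5.

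For 10 of the 40 genes 2 or 3 probes had values on all arrays, which gives a second look at the same transcript. The probes of Tmed2 averaged 0.55 and 0.66, those of Sec61b 0.55 and 0.68, and those of Sec63 0.48 and 0.68 over the 4 arrays. For these genes all probes with values on all arrays gave the same direction. The 2 Sec63 probes that lack full siSelT-1 values had siSelT-5 means of -0.33 and -0.38. The probes of Kdelr2 did not: one averaged -0.06 with siSelT-1 and -0.94 with siSelT-5, and the other 0.40 and 0.55. Those of Sec31a split with siSelT-1, at 0.65 and -0.18. The median gap between the lowest and the highest probe of a gene was 0.26 over the 10 genes and 0.32 over 916 genes with 2 or 3 such probes. The mean of Kdelr2 near 0 is therefore an average of opposite readings.

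**Figure D4:**
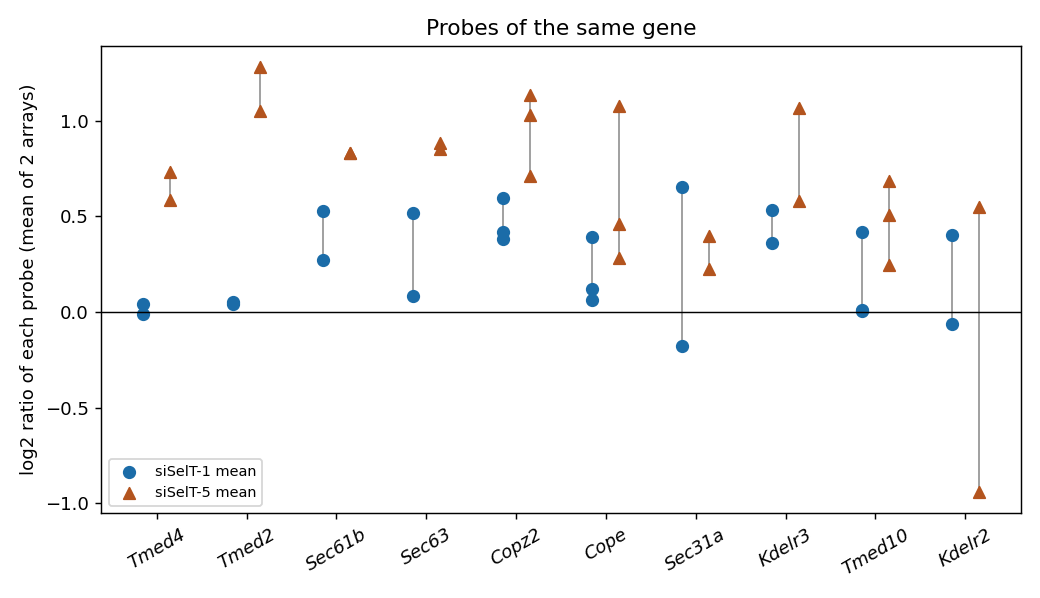
Mean log2 ratio of each complete probe (with values on all arrays) with siSelT-1 (circles) and siSelT-5 (triangles) for the 10 genes with several complete probes, ordered by the gap between their probes; grey lines join probes of one gene. The Kdelr2 probes lie on opposite sides of 0 with both constructs, while with siSelT-5 every complete probe of the other 9 genes lies above 0. Probes without full siSelT-1 values are not shown.

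Probes without full siSelT-1 values stood lower. Of the 75 probes 53, or 70.7%, had a value on all arrays, beside 34.5% of probes with 1 gene name. The share was 100% for the COPI coat, the signal peptidase and the KDEL receptors, 83.3% for Arf, 81.8% for p24, 63.6% for translocon, 55.0% for COPII and 14.3% for Sec22 probes. The siSelT-5 mean of the 53 complete probes had a median of 0.61, beside 0.38 for 6251 named probes of the same kind. For the 12 probes with both siSelT-5 values and none for siSelT-1 it was -0.31, beside -0.61 for 5954 such probes, and for the 4 with 1 siSelT-1 value it was -0.66, beside -0.0008 for 1507. This split ran within genes. A further Tmed4 probe had -1.27 and -1.22 on the siSelT-5 arrays, where the complete probes averaged 0.59 and 0.73. 2 further probes of Sec63 had siSelT-5 means of -0.33 and -0.38, where its complete ones had 0.85 and 0.89.

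**Figure D5:**
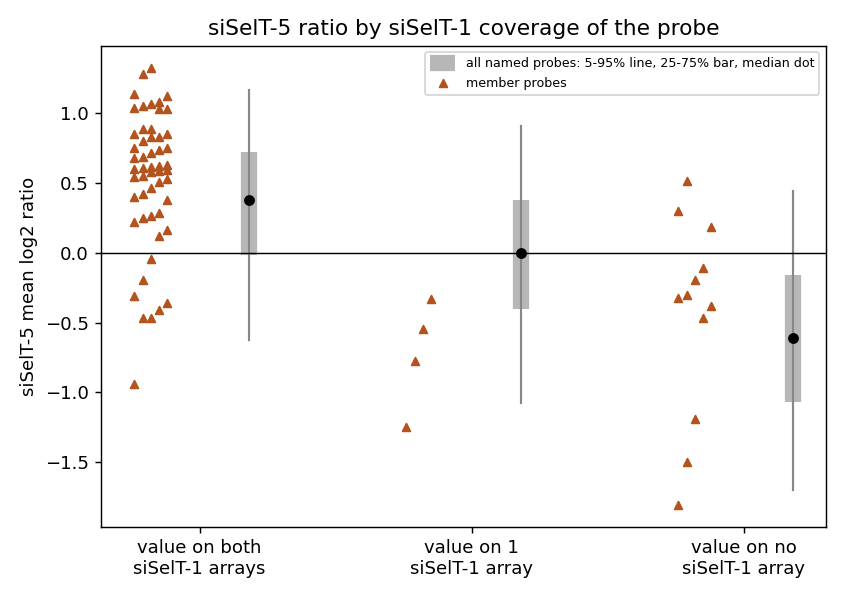
siSelT-5 mean log2 ratio of single probes by the number of siSelT-1 arrays on which the probe had a value; triangles are the transport gene probes and grey marks show all probes with 1 gene name. Of the 53 complete transport probes 45 lie above 0, of the 4 with 1 siSelT-1 value 0 do, and of the 12 with none 3 do.

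The 6 genes without a complete probe were fitted on the siSelT-5 arrays with all 9711 genes that had both values, of which 28.8% passed (29% centred on all values). Of the 4957 genes outside the 4-array fit 34.6% passed, 1599 lower and 118 higher, with a median of -0.53. Sec16b, the second Sec16 gene, fell at -1.50 and -2.11 (mean -1.80, adjusted p = 0.0176, and 0.0257 with each array centred on all its values). Sec24a averaged -0.72 over 3 probes (0.0557). Arf4 gave -1.55 on one array and 2.58 on the other, which is no measurement of a direction (0.688). Sec22a (-0.14), Sec22c (-0.30) and Sec61a2 (-0.24) did not pass.

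Partners of these genes were read from 4 lists. Of 18 measured translocation partners 8 rose and 0 fell, with 7 and 4 after centring. Over all genes 45.7% rose and 8.04% fell, with 20.5% and 21.9% after centring, the background for all 4 lists. Among them were the TRAP subunits Ssr3 (0.74 ± 0.50, adjusted p = 0.00181), Ssr1 (0.69 ± 0.35, 0.00282) and Ssr4 (0.59 ± 0.28, 0.00300), which form a complex beside the channel, and Srp14 (0.67 ± 0.10, 0.00232), a protein of the signal recognition particle. The tail-anchor insertion genes Sgta and Get1 rose to 0.78 and 0.73 (0.00204 and 0.00224). These 6 also passed after centring. The 4 that passed lower after centring were Tram1 (-0.40), Srp72 (-0.39), Srp19 (-0.35) and Get3 (-0.28) (limma, adjusted p = 0.0117 to 0.0462). The median of the 18 was 0.16, or -0.11 centred.

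Of 15 genes of ER exit and cargo receptors 9 rose and 0 fell, with 5 and 3 after centring. Yif1a (0.75), Ergic1 (0.66), Tfg (0.64), Surf4 (0.61) and Yipf5 (0.54) rose on both scales (adjusted p = 0.00185 to 0.00528), and Preb, the exchange factor of Sar1, rose as deposited (0.31, 0.0237). Surf4 is a cargo receptor and Tfg organises exit sites. Of 21 tethers and SNAREs 8 rose and 3 fell, with 3 and 5 after centring. Use1 (0.65), Napg (0.53) and Golga2 (0.51) rose on both scales, Rab2a (0.47) and Napa (0.43) as deposited, and Golga5 fell on both (-0.36, 0.0113). Of 9 Arf regulators 3 rose and 0 fell, with 1 and 1 after centring. They were the GTPase-activating proteins Asap1 (0.77, 0.00232) and Arfgap3 (0.46, 0.00696) and the Arf-binding Arfip1 (0.56, 0.0294), and Asap1 alone of the 3 passed after centring. Arl1 (0.19), Arfgef2 (-0.18) and Arfgap2 (0.17) did not pass as deposited. The medians of these lists were 0.29, 0.24 and 0.17, beside 0.25 for all genes.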

How the data were processed

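The deposited values are log ratios of each array, read as log2 (knockdown over vector, from titles and dye labels). Per the labels, total RNA (10 to 15 µg) was copied with oligo-dT and coupled to Cy3 or Cy5. The log base, background correction, normalization and filter are not given in the sources used here. Read in reverse, every direction would turn, and the same dye orientation on all arrays leaves dye effects in each ratio. Vector RNA enters only through each ratio, so its spread cannot be told apart from that of the knockdown cultures. Whether arrays shared vector RNA is not stated.

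Of 22534 probes 18129 had 1 gene name, 140 several and 4265 none (platform annotation; 18041 matched RefSeq GRCm38.p6 by Entrez Gene, with 0 symbols changed). Probes of a gene with values on all 4 arrays were averaged, giving 4754 genes. limma 3.58.1 (R 4.3.3, lmFit and eBayes) fitted both construct means with 2 residual degrees of freedom, adjusting by Benjamini-Hochberg over all genes, two-sided. Labels name replicates as different cultures. The number of arrays limits precision. The fit was tested on simulated data. Every tested member is named, and of each other list the 6 genes with the smallest p. The 4 translocation partners called lower after centring are named as well. Members and lists were chosen with earlier results of these data known. Alternatives were centring, scaling, probe handling, filters, eBayes and weight settings, a replicate block and leaving out arrays.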

Additional observations from a re-analysis of the deposited data

Results flagged for a closer look

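For 4 transport genes both arrays of one construct lay on one side of 0 and both arrays of the other construct on the opposite side, as deposited. The share of all genes with this pattern was not counted, so the 4 are given by value only. The difference of siSelT-1 minus siSelT-5 was -0.72 for Copb1 (limma, adjusted p = 0.0586), -0.69 for Sec23b (0.0606), 0.37 for Kdelr2 (0.169) and 0.47 for Tmed9 (0.0912). None passed, also not after centring (0.106 to 0.187). Copb1 and Sec23b were below vector with siSelT-1 and above it with siSelT-5, and Kdelr2 and Tmed9 the reverse. The Kdelr2 value averages probes of opposite direction. The Sec23b value is that of the complete probe, and over both Sec23b probes the siSelT-5 mean was -0.04.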

How the results depend on the processing

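Counts of the 40 genes are given as higher and lower, as deposited 26 and 1 for both constructs, siSelT-1 with 1 and 2, siSelT-5 with 28 and 2, and 0 and 0 for siSelT-1 minus siSelT-5. Leaving out each array in turn gave 0 to 30 and 0 to 4 for both constructs, 0 to 12 and 0 to 3 with siSelT-1, 0 to 4 lower with siSelT-5, and 0 to 4 and 0 to 19 for the difference. It also gave means of -0.40 to 0.21 for Copg2, -0.053 to 0.028 for Kdelr2, -0.10 to 0.21 for Sar1b, -0.58 to 0.090 for Sec11c, -0.49 to 0.26 for Sec13 and -0.062 to 0.28 for Sec23a. A lone array of a construct is assumed to vary like the other construct. Centring on shared probes gave 13 and 4 for both constructs and 13 higher for siSelT-5, with medians of 0.13 for COPI, 0.34 for KDEL receptors, 0.045 for p24 and -0.011 for Sec22b. Under it Arf2 (-0.00028), Copb1 (-0.015), Sar1b (-0.21), Sec22b (-0.011) and Sec23a (-0.16) turned sign, none called. Centring and dividing by the median absolute deviation gave 13 and 4 for both, 5 higher for siSelT-1, and 9 and 4 for siSelT-5. Over all 4754 genes that setting called 2228, 1588 and 1460 in either direction. Medians were then 0.12 for COPI, -0.084 for COPII, 0.32 for KDEL receptors, 0.037 for p24 and -0.010 for Sec22b. Arf2 (-0.045), Arf3 (-0.0016), Copb1 (-0.070), Sar1b (-0.17), Sec22b (-0.010) and Sec23a (-0.18) turned sign. Centring on all values gave 28 lower for the difference, where 2512 of 4754 genes passed in either direction. It gave 0 lower for siSelT-5 and a mean of 0.031 for Kdelr2. With array weights siSelT-1 had 11 higher, the difference 3 lower and siSelT-5 0 lower. Over all 4754 genes the difference then had 279 calls. When 1 array per construct sufficed, both constructs had 3 lower, siSelT-1 0 and 0, and siSelT-5 1 lower, and the Sec22 median was -0.070. With single probes siSelT-1 had 3 higher, both constructs 2 lower and the genes of siSelT-5 values alone 2 rather than 1. With unnamed probes included siSelT-1 had 4 higher and both constructs 2 lower. Robust eBayes moved no count past 1.5 times. The replicate numbers are not stated to mark a shared day, and same-numbered arrays deviated together weakly (r = 0.08 over genes, 2 pairs). With a replicate block siSelT-1 had 0 and 0 and siSelT-5 0 lower. That fit called 35 of 4754 genes for siSelT-1. The cause of these changes was not tested. Ratios carry no signal over background, so dim probes could not be weighed.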

Other observations

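Partner genes of the route also held large gaps between the constructs. Cnih1, a cargo receptor of COPII vesicles, had -0.39 and -0.01 with siSelT-1 and 0.98 and 0.84 with siSelT-5. Gosr2, a Golgi SNARE, had -0.37 and -0.21 with siSelT-1 and 0.49 and 1.08 with siSelT-5. Golga5, a golgin, ran in reverse, with 0.10 and 0.18 with siSelT-1 and -0.82 and -0.92 with siSelT-5. The difference of siSelT-1 minus siSelT-5 did not pass for any of these 3 genes (limma, adjusted p = 0.0543, 0.0558 and 0.0543). They were chosen after their values were seen.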
